A study of Mus musculus with 87 samples.

Results

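The organic ion and drug transporter genes of the mouse liver were followed after partial hepatectomy (PH), the removal of a large share of the liver, and after sham surgery. The set holds the protein-coding genes of the Slco, Slc22a, Abcb, Abcc and Abcg families, taken by symbol, without the bile canalicular genes Abcb4 and Abcb11. These families gave 64 genes in the table. Of them, 42 had a log2 RPKM (mapped reads scaled for library size and for transcript length) above −1.5 in at least 1 liver and are described here as members, out of 15396 genes of all kinds that passed the same threshold.

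Livers of individual male C57BL/6 mice, 12 to 14 weeks old at surgery and fed only in the dark phase, were analysed for poly(A) RNA. Resting livers came from unoperated mice at 0 h (C0, 9 livers), and unoperated mice also gave livers at 4 h (C4, 3 livers) and 4 weeks (C4W, 2 livers). Sham livers were taken at 1 h (S1, 6 livers), 4 h (S4, 5 livers), 10 h (S10, 3 livers), 20 h (S20, 3 livers) and 48 h (S48, 3 livers). PH livers were taken at 1 h (X1, 6 livers), 4 h (X4, 3 livers), 10 h (X10, 6 livers), 20 h (X20, 6 livers), 28 h (X28, 3 livers), 36 h (X36, 6 livers), 44 h (X44, 3 livers), 48 h (X48, 5 livers), 72 h (X72, 3 livers), 1 week (X1W, 3 livers) and 4 weeks (X4W, 2 livers). Surgery was done early in the light phase, so livers of different hours also differ in time of day and in time since the last meal. Sham and PH mice had anesthesia and opening of the abdomen in common, and C0, C4 and C4W mice had neither.

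Carriers of the Slco and Slc22a families bring organic anions, organic cations and carnitine into cells, whereas transporters of the Abcb, Abcc and Abcg families use ATP to move substrates out of cells or between compartments. In the hepatocyte, uptake carriers lie in the sinusoidal membrane that faces the blood. Pumps of the canalicular membrane send bile pigments, sterols and drugs into bile, and pumps of the basolateral membrane return conjugates to the blood. Together these proteins set how fast the liver clears bilirubin, bile acids, hormones and many medicines.

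The threshold on level is the only measured value that chose the members. Just inside it were Slco1a5, with a highest log2 RPKM of −1.497, Abcc4 at −1.17 and Abcb9 at −1.11. Just outside were Slc22a16 at −2.086, Abcc1 at −2.496 and Abcc12 at −3.147. In all, 22 genes were outside, among them the kidney anion carriers Slc22a6, Slc22a8 and Slc22a12, and Abcb5, Slco6b1, Slco6c1 and Slco6d1 had no read in any of the 80 livers. Of the 42 members, 23 were above the threshold in all 80 livers and 6 in fewer than 20.

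Depth was estimated from the deposited values, with the most frequent low value taken as 1 read. It lay between 12.2 and 48.8 M reads per library. Defining hepatocyte markers were abundant in every group, with a summed level (8 of 8 markers in the table) of 48270 to 58750 RPKM in C0 and 26630 to 35150 in X20, the group with the lowest value. In bulk RNA, fewer cells of a type and less RNA per cell cannot be told apart. C0 replicates 7 to 9 stood apart from replicates 1 to 6. They were all lower in 17 of the 42 members and all higher in 3 (Abcc10, Abcg3 and Slc22a17). The same count was not taken over all genes, so it describes these livers and not a trait of the transporters. For Abcc2, for example, C0 replicates 1 to 9 had 31.5, 37.8, 30.0, 34.4, 45.3, 43.8, 15.0, 19.5 and 17.6 RPKM, and the last 3 were the lowest. Counts against C0 are therefore also given with replicates 1 to 6 alone where they differ by more than 1.5 times.

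In the resting liver, 17 members had a median above 10 RPKM, 7 lay between 1 and 10, and 18 were below 1. RPKM is a level per transcript length, so levels of different genes can be compared. Among the carriers with high medians in C0 were Slco1b2 (163 RPKM), which carries bile acids, bilirubin and statins, Slco1a1 (97.3 RPKM), Slc22a30 (56.9 RPKM) and Slc22a18 (40.9 RPKM). The C0 ranges of Slco1b2 (94.0 to 192 RPKM) and Slco1a1 (53.5 to 112 RPKM) overlapped. Among pumps, the bilirubin conjugate exporter Abcc2 (31.5 RPKM), the basolateral Abcc3 (25.2 RPKM) and Abcc6 (21.9 RPKM), the breast cancer resistance protein Abcg2 (16.1 RPKM) and the sterol transporters Abcg5 (13.4 RPKM) and Abcg8 (11.9 RPKM) led. The P-glycoprotein genes Abcb1a and Abcb1b had 0.361 and 0.249 RPKM.

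**Figure D1:**
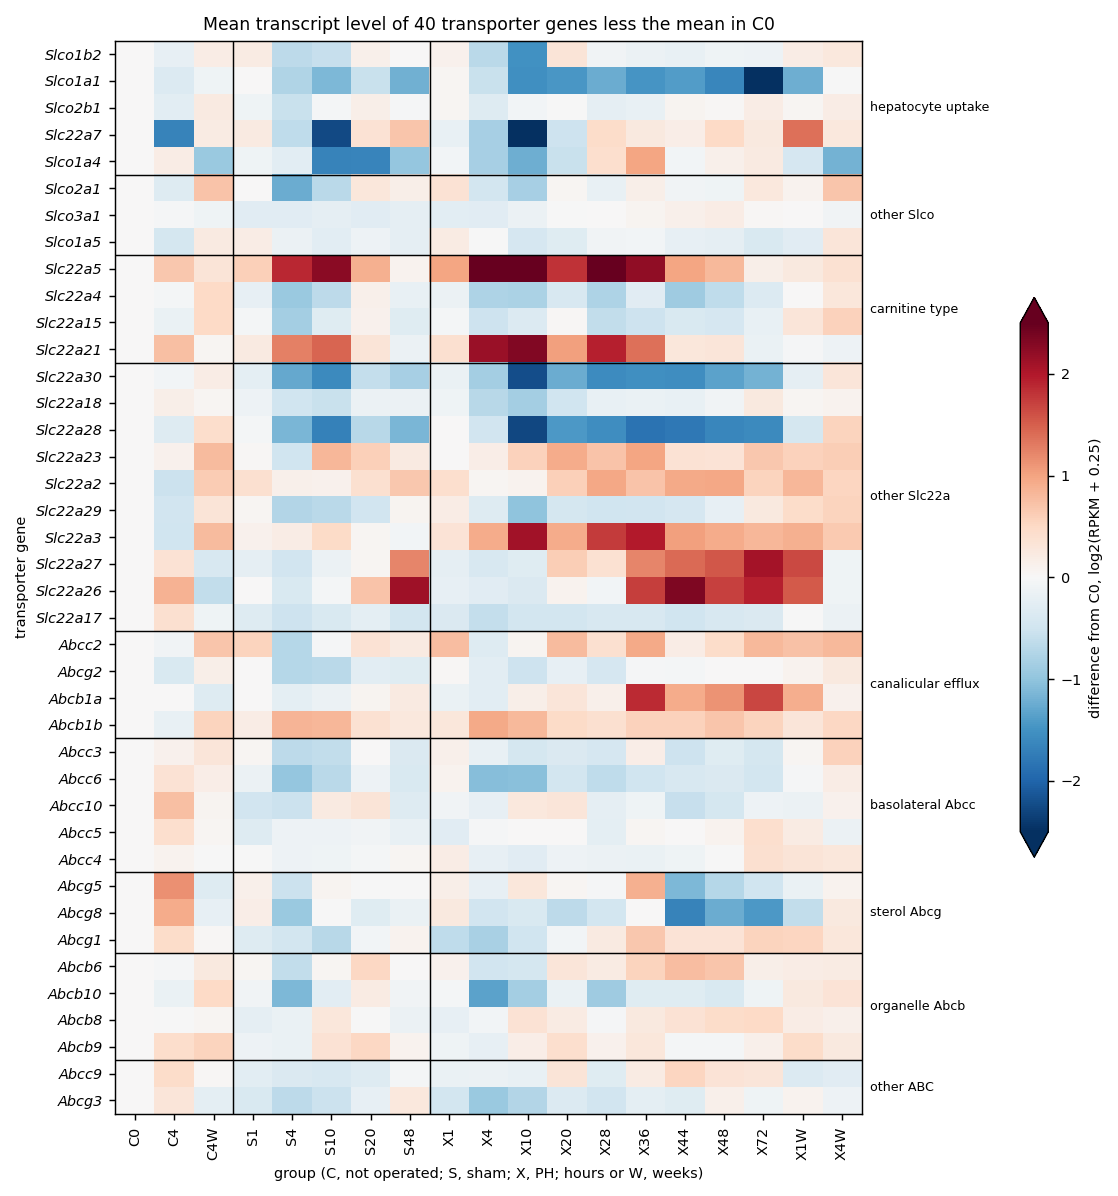
Mean log2(RPKM + 0.25) of 40 members in each of the 19 groups less the mean in C0 (colour), with rows grouped by role. Slc22a5 and Slc22a21 are higher than in C0 in S4, S10 and the PH groups from X4 to X36, Slc22a3 mainly in PH groups, and Slco1a1, Slc22a28 and Slc22a30 are lower in most sham and PH groups from S4 to X72.

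Each PH group was set against the sham group of the same hour, which asks what differed with resection beyond surgery. Group means were compared with limma on log2(RPKM + 0.25) over all 15396 genes, and a gene was called at a Benjamini-Hochberg adjusted p below 0.05 and a log2 difference beyond 0.5. At 1 h, limma called 0 of the 42 members higher (0.624% of all genes) and 0 lower (0.026%), and 2 members, Abcc10 and Slco2a1, had an unadjusted p below 0.05. At 4 h, 5 members were higher after PH (3.16% of all genes) and 0 lower (5.48%), where limma gave 9 members higher and 0 lower at an unadjusted p below 0.05. At 10 h, 3 were higher (3.4%) and 3 lower (3.62%). At 20 h, 5 were higher (4.49%) and 1 lower (2.61%). At 48 h, 6 were higher (24.5%) and 3 lower (2.69%). The share of members called higher at 48 h was thus below that of all genes. The median log2 difference of the 42 members was 0.04, 0.13, −0.10, −0.02 and 0.06 at these hours in turn.

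In all, 15 of the 42 members were called in PH against sham at 1 or more hours, beside 38.1% of all genes. Slc22a5 and Slc22a3 were called at 4 of the 5 hours, Slc22a21 and Slc22a30 at 3 and Slco1a4 at 2, and the other 10 were called once. The 20 h calls were the least secure when single livers were left out. Of the 6 members called there, 1 was left without S20 replicate 1, 2 without S20 replicate 2 or 3, and 3 without X20 replicate 6. When only the X20 and S20 livers were fitted limma called 0, beside 8 members higher and 8 lower at an unadjusted p below 0.05 in the fit of all groups.

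The livers were collected in several experimental periods. By the design of the study, the S10 and S20 livers came from a single period and the X10 and X20 livers from that period and another one. The labels do not name the period of a liver, so the differences were also taken with replicates 1 to 3 or 4 to 6 of X10 and X20 alone. At 10 h, 2 members were then higher and 2 lower with replicates 4 to 6, and 3 and 3 with replicates 1 to 3. At 20 h, 3 were higher and 5 lower with replicates 4 to 6 (878 genes called, 48.9% higher). With replicates 1 to 3, 3 members, each higher, were called (1361 genes called, 78.1% higher).

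Of the 4 carnitine-type carriers, Slc22a5 and Slc22a21 were higher after PH than after sham surgery, and Slc22a4 and Slc22a15 were not called. Slc22a5 (Octn2) is the sodium-dependent carrier that brings carnitine into cells, where carnitine serves the transport of fatty acids into mitochondria, and Slc22a21 (Octn3) is its neighbour and close relative. In mm9 they lie at chr11:53678044-53705162 and chr11:53763467-53793834, both on the minus strand, with Slc22a4 (Octn1, an ergothioneine carrier) beyond them at chr11:53796625-53841592. Slc22a5 had 2.15 to 5.12 RPKM in C0 with a median of 3.78. In S4 the 5 livers had 9.95, 14.4, 17.5, 14.4 and 15.8 RPKM, and in X4 the 3 livers had 27.8, 34.8 and 38.6. The groups did not overlap, and X4 was 2.33-fold above S4 (log2 1.22 ± 0.28, adjusted p = 0.0014, with the SE after ± here and for all log2 differences).

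At 10 h, Slc22a5 had 18.2, 21.7 and 15.97 RPKM in S10 and 23.7 to 54.8 in X10 with a median of 41.8. All 6 X10 livers were above all 3 S10 livers (2.11-fold, log2 1.08 ± 0.27, adjusted p = 0.0049), though the call was lost with X10 replicates 4 to 6 alone (0.89, adjusted p = 0.073). S10 itself was 4.78-fold above C0 (log2 2.26 ± 0.26, adjusted p = 8e-11). At 20 h, S20 had 8.26, 6.22 and 6.76 RPKM and X20 had 9.28 to 23.9 with a median of 11.3 (log2 0.92 ± 0.27, adjusted p = 0.018). With X20 replicates 1 to 3 alone the 20 h difference was 0.57, adjusted p = 0.21, and with replicates 4 to 6 alone 1.26, adjusted p = 0.0058.

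Levels were still high at 28 h and 36 h, with 23.3, 31.4 and 27.5 RPKM in X28 and 15.9 to 22.8 in X36, and lower at 44 h, with 8.09, 9.39 and 5.67 in X44. By 48 h, S48 had 4.11, 4.92 and 2.99 RPKM and X48 had 10.3, 4.63, 6.26, 4.18 and 10.2. These groups overlapped, and the call (log2 0.72 ± 0.28, adjusted p = 0.032) was lost without S48 replicate 1 or 3, without X48 replicate 1 or 5, with the replicate number as a block (0.66, adjusted p = 0.054) and with libraries scaled to the same median (0.25, adjusted p = 0.56). X72 (3.64, 3.6 and 5.17 RPKM) and X1W (4.43, 4.38 and 4.34 RPKM) were near the C0 range and were not called against it.

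Slc22a21 followed at a lower level. Its livers had 0.393 to 0.617 RPKM in C0, 1.08, 1.5, 1.85, 1.68 and 1.72 in S4, 2.62, 3.09 and 3.76 in X4, 1.88, 2.01 and 1.6 in S10 and 2.31 to 4.67 in X10. PH and sham livers did not overlap at 4 h (log2 0.91 ± 0.21, adjusted p = 0.0014) or 10 h (log2 0.84 ± 0.20, adjusted p = 0.0033), and PH was also higher at 20 h (log2 0.70 ± 0.20, adjusted p = 0.016). With S4 replicates 4 and 5 alone as the sham group the 4 h difference was 0.79, adjusted p = 0.054, and with X20 replicates 1 to 3 alone the 20 h difference was 0.46, adjusted p = 0.16. The ratio of Slc22a5 to Slc22a21 had a median of 7.06 in C0 (5.47 to 9.22), 9.24 in S4 and 11.4 in X10 (10.3 to 12.7). A read that maps to both genes was divided between them, so their values are not fully separate.

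Slc22a4, the next gene of the locus, was called in PH against sham at no hour. It had 0.442 to 1.38 RPKM in C0, and it was lower in S4 than in C4 (log2 −0.87 ± 0.20, adjusted p = 0.00018) and lower in X44 than in C0 (log2 −0.88 ± 0.18, adjusted p = 3.7e-05). The last member of this role, Slc22a15, had 0.465 to 0.873 RPKM in C0 and 0.306 to 0.427 in X36, without overlap (log2 −0.52 ± 0.12, adjusted p = 0.00012).

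**Figure D2:**
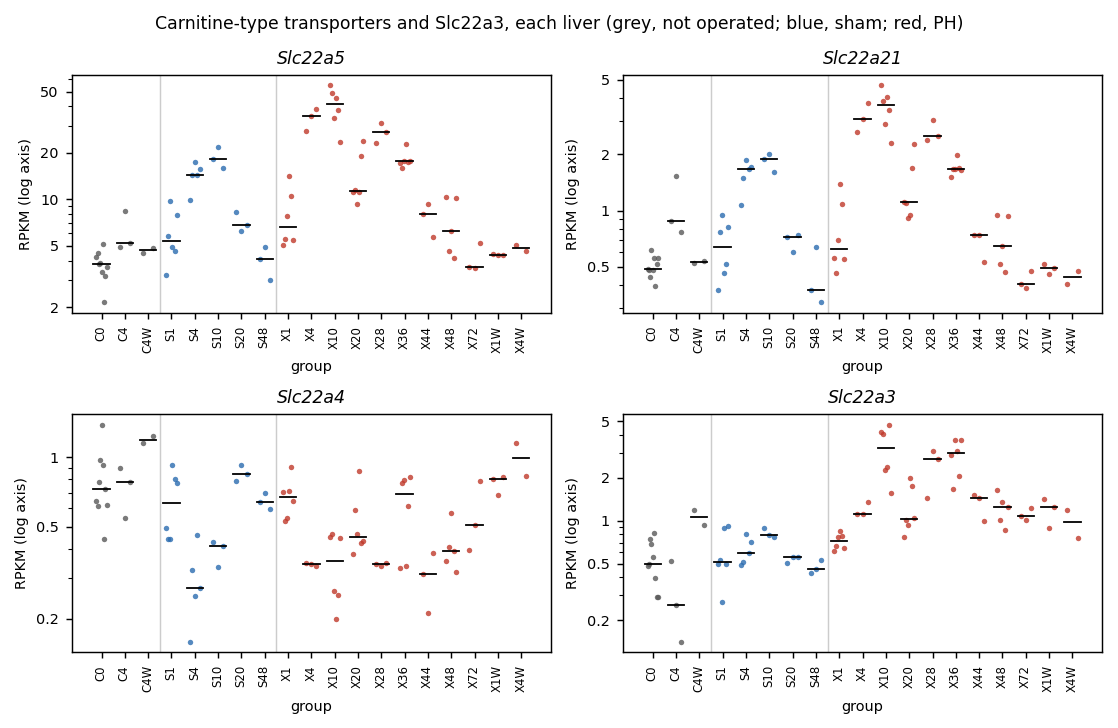
RPKM of the carnitine-type carriers and of Slc22a3 in each liver (points, log axis) by group, with the group median as a black bar. Slc22a5 is above C0 in S4 and S10 and higher again in X4 and X10, and Slc22a3 is highest in X10, X28 and X36.

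Slc22a3 (Oct3), a carrier of organic cations that include monoamines, had the largest log2 difference between PH and sham of all members called. Its levels in C0 were 0.293 to 0.824 RPKM with a median of 0.494. At 10 h, S10 had 0.89, 0.789 and 0.766 RPKM and X10 had 1.57 to 4.71 with a median of 3.22. The groups did not overlap (3.04-fold, log2 1.60 ± 0.25, adjusted p = 5.3e-06).

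At 4 h, S4 had 0.489, 0.516, 0.805, 0.595 and 0.712 RPKM and X4 had 1.12, 1.12 and 1.35, also without overlap (log2 0.74 ± 0.26, adjusted p = 0.041). That call was lost without any 1 of the X4 livers, without S4 replicate 1, 2 or 4, with the replicate number as a block (0.65, adjusted p = 0.083) and with S4 replicates 4 and 5 alone (0.68, adjusted p = 0.23). At 20 h, S20 had 0.507, 0.552 and 0.559 RPKM and X20 had 0.773 to 2.0 (log2 0.87 ± 0.25, adjusted p = 0.014, or 0.54, adjusted p = 0.19 with X20 replicates 1 to 3 alone). At 48 h, S48 had 0.431, 0.458 and 0.531 RPKM and X48 had 1.64, 1.01, 1.35, 0.861 and 1.26 (log2 1.00 ± 0.26, adjusted p = 0.001). The PH livers were above the sham livers without overlap at both hours.

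Between these hours, X28 had 1.45, 3.1 and 2.7 RPKM of Slc22a3 and X36 had 1.68 to 3.66. X1W (1.41, 0.881 and 1.252 RPKM) was still above C0 (log2 0.90 ± 0.23, adjusted p = 0.002). The unoperated C4W livers had 1.2 and 0.937 RPKM, however, and did not overlap C0 either, while X4W had 1.19 and 0.753. Slc22a2, another cation carrier on chr17, was called in PH against sham at no hour.

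The promoters of Slc22a5 and Slc22a3 are shown because these genes were called at 4 hours. They are RefSeq windows of build GRCm38.p6, from 250 bases before to 50 bases after the annotated start, printed 5′ to 3′ on the strand of the gene (minus for both), at chr11:53891654-53891953 and chr17:12507655-12507954. Capitals would mark a match on either strand to a motif. The motifs searched were AGGTCA, a hexamer bound by nuclear receptors, the letters CCAAT of the box of that name, TATAAA for the TATA box, TTCNNNGAA for STAT factors, TGACTCA for AP-1, CACGTG for the E-box and GTTAAT as a hexamer for HNF1.
Slc22a5: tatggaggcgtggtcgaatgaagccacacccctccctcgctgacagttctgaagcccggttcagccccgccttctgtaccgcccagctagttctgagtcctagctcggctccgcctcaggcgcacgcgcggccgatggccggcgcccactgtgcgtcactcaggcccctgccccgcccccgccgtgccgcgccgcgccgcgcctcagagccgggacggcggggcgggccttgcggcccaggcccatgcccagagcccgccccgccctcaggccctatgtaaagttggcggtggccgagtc
Slc22a3: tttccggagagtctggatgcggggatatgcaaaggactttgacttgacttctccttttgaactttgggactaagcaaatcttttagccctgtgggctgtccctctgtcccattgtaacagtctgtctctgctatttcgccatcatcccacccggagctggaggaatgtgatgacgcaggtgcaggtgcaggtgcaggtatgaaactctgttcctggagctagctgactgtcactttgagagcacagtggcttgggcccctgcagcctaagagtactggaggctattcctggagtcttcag
Neither window holds any of these letters. Of 32851 such windows of all genes, 16.3% hold AGGTCA, 37.4% CCAAT, 13.6% TATAAA, 8.3% TTCNNNGAA, 5.2% TGACTCA, 7.15% CACGTG and 7.1% GTTAAT. A window was matched by symbol for 33 of the 42 members.

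Of the sinusoidal uptake carriers of the hepatocyte, Slco1b2 and Slco1a4 were called between PH and sham, and Slco1a1, Slco2b1 and Slc22a7 were not. Slco1b2 was lower in PH livers at 10 h. Its S10 livers had 94.3, 97.2 and 95.2 RPKM and the X10 livers had 30.5 to 80.9 with a median of 52.1. The groups did not overlap (1.93-fold lower, log2 −0.95 ± 0.19, adjusted p = 0.00043), and with only these 2 groups fitted the call was just lost (−0.95, adjusted p = 0.054).

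At 20 h, Slco1b2 had 161, 142 and 165 RPKM in S20 and 129 to 237 in X20, both within or above the C0 range. Its PH minus sham difference at 48 h less that at 10 h was called (log2 0.84 ± 0.28, adjusted p = 0.017), but not with libraries scaled to the same median of genes above 1 RPKM (0.46, adjusted p = 0.29). It is 1 of 4 members called in this comparison of hours, 3 of them higher (beside 21.7% of all genes) and 1 lower (beside 1.38%).

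Slco1a4 takes up bile acids and digoxin. At 48 h, S48 had 4.2, 4.86 and 9.29 RPKM and X48 had 11.8, 10.3, 15.0, 10.7 and 15.8, without overlap (2.13-fold, log2 1.09 ± 0.36, adjusted p = 0.0098). That call was lost without S48 replicate 1 or 2. At 20 h, S20 had 2.4, 7.71 and 2.21 RPKM and X20 had 3.56 to 12.1, and the groups overlapped (log2 1.09 ± 0.34, adjusted p = 0.026, or 0.73, adjusted p = 0.28 with X20 replicates 4 to 6 alone). C0 had 11.0, 8.48, 8.05, 20.9, 21.9, 17.2, 6.58, 7.84 and 11.0 RPKM, so that replicates 4 to 6 were the highest resting livers.

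S20 was 3.14-fold below C0 (log2 −1.65 ± 0.32, adjusted p = 0.00011) and S48 1.95-fold below it (log2 −0.96 ± 0.32, adjusted p = 0.031), whereas X48 was not called against C0. The level of Slco1a4 was highest in X36, at 19.2 to 28.8 RPKM (log2 0.98 ± 0.26, adjusted p = 0.00071), where it overlapped with C0.

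Slco1a1 is an organic anion carrier that is more abundant in male than in female mouse liver. It had 53.5 to 112 RPKM in C0, 37.6, 40.9 and 36.1 in S10, 24.0 to 34.8 in X10, 52.7, 27.6 and 32.2 in S48 and 23.1, 23.2, 40.1, 21.97 and 29.6 in X48. It fell against C0 in S10 (2.18-fold, log2 −1.13 ± 0.34, adjusted p = 0.0048) and in S48 (2.31-fold, log2 −1.21 ± 0.34, adjusted p = 0.0093). The lowest group was X72, at 1.79, 17.4 and 11.8 RPKM, or 11.1-fold below C0 (log2 −3.47 ± 0.34, adjusted p = 2.4e-13), with X72 replicate 1 far below the other livers. Without it the log2 difference was −2.525. At 1 week, 33.8, 45.9 and 28.9 RPKM was still below C0 (log2 −1.23 ± 0.34, adjusted p = 0.0037). At 4 weeks, PH livers had 80.04 and 85.9 RPKM and unoperated ones 77.9 and 76.3.

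Slc22a7 (Oat2), which carries organic anions and cyclic nucleotides, had 10.2 to 29.1 RPKM in C0 with a median of 19.4 and 7.35, 2.1 and 12.1 in C4 (log2 −1.68 ± 0.41, adjusted p = 0.0038), and with C0 replicates 7 to 9 alone that call was lost (−1.17, adjusted p = 0.23). At 10 h, S10 had 3.56, 3.71 and 4.11 RPKM, 4.78-fold below C0 (log2 −2.26 ± 0.41, adjusted p = 6.7e-06), and X10 had 1.41 to 7.37, a range that held the S10 values. X1W had 38.6, 58.6 and 55.8 RPKM, above all C0 livers (2.61-fold, log2 1.39 ± 0.41, adjusted p = 0.0068).

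Slc22a2 (Oct2), the cation carrier best known from the kidney, was higher in X28 (2.47, 2.54 and 1.39 RPKM) than in C4 (0.624, 0.522 and 0.577 RPKM, 2.82-fold, adjusted p = 1.7e-05). The C4 and X28 livers came from different experimental periods, and against C0 replicates 1 to 6 the log2 difference was 0.4991 (adjusted p = 0.02), short of the fold threshold. Slco2b1, with 19.1 to 29.6 RPKM in C0, was called in none of the comparisons made.

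**Figure D3:**
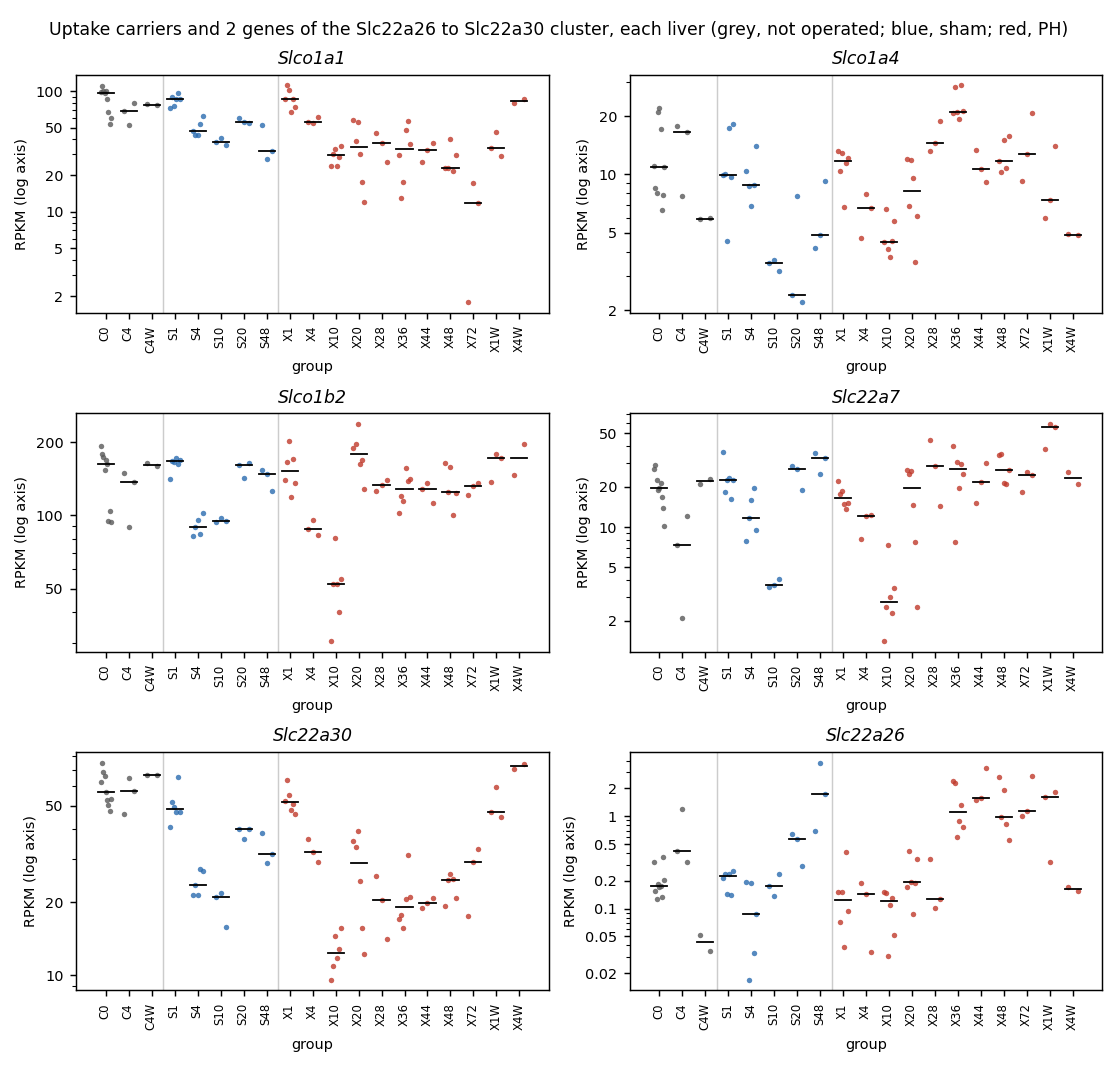
RPKM of Slco1a1, Slco1a4, Slco1b2, Slc22a7, Slc22a30 and Slc22a26 in each liver (points, log axis) by group, with the group median as a black bar. Slco1b2 has its lowest values in X10 and Slco1a1 in X72, and the medians of Slc22a26 are highest in X36, X44, S48, X48, X72 and X1W.

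Slc22a26 to Slc22a30 form a cluster of organic anion carriers on chr19 of mm9, in which reads may be divided between close relatives. Slc22a30, the most abundant of them, had 47.6 to 74.9 RPKM in C0. At 10 h, S10 had 20.9, 21.9 and 15.8 RPKM and X10 had 9.59 to 15.7, with all X10 livers below all S10 livers (log2 −0.63 ± 0.21, adjusted p = 0.037). It was also lower in PH livers at 20 h (log2 −0.65 ± 0.21, adjusted p = 0.03) and 48 h (log2 −0.51 ± 0.22, adjusted p = 0.049).

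These calls of Slc22a30 were close to the threshold. At 20 h, S20 had 39.9, 36.5 and 39.9 RPKM and X20 replicates 1 to 6 had 35.8, 33.7, 39.2, 24.4, 15.6 and 12.2, and with X20 replicates 1 to 3 alone the difference was −0.10, adjusted p = 0.8, and with replicates 4 to 6 alone −1.20, adjusted p = 4.1e-05. At 48 h, S48 had 38.6, 29.1 and 31.6 RPKM and X48 had 19.4, 24.6, 26.1, 24.9 and 20.8, without overlap. The 48 h call was lost in 6 of the 8 fits that left out 1 of these livers, and with the replicate number as a block (−0.51, adjusted p = 0.054). The 10 h call was lost without S10 replicate 1 or 2 or X10 replicate 1, 2 or 4, and with X10 replicates 4 to 6 alone (−0.53, adjusted p = 0.21). Slc22a28 was not called between PH and sham and was 3.24-fold below C0 in S10 (log2 −1.70 ± 0.26, adjusted p = 1.8e-07) and 3.59-fold below it in X36 (log2 −1.84 ± 0.21, adjusted p = 5.8e-12).

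Slc22a26 and Slc22a27 were low in C0, at 0.128 to 0.364 and 0.174 to 0.409 RPKM. At 48 h, Slc22a26 had 0.699, 3.76 and 1.72 RPKM in S48 and 2.67, 0.993, 1.9, 0.822 and 0.553 in X48. Both groups were above C0 without overlap (log2 2.13 ± 0.33, adjusted p = 1.6e-06 for S48 and log2 1.71 ± 0.27, adjusted p = 1.7e-07 for X48). The livers of a group were uneven, as in X1W with 1.62, 0.318 and 1.83 RPKM. Slc22a27 was above C0 in S48, X36, X44, X48, X72 and X1W, with log2 differences between 1.21 and 2.08. No C4W or X4W liver was above the C0 range for either gene. Slc22a29, the remaining gene of the cluster, had 0.233 to 1.07 RPKM in C0 and was lower in S10 (log2 −0.68 ± 0.19, adjusted p = 0.0017).

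Among the 4 canalicular pumps, Abcb1a was called between PH and sham, at 48 h, and Abcb1b, Abcc2 and Abcg2 were not. Abcb1a encodes a P-glycoprotein, a pump of many anticancer drugs. S48 had 0.531, 0.469 and 0.528 RPKM and X48 had 1.42, 1.26, 0.863, 1.09 and 1.21, without overlap (1.85-fold, log2 0.89 ± 0.25, adjusted p = 0.003). With libraries scaled to the same median the difference was 0.51, adjusted p = 0.083.

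Against C0 (0.268 to 0.654 RPKM), the rise of Abcb1a was largest in X36, at 1.1 to 5.34 RPKM with a median of 2.03 (3.62-fold, log2 1.86 ± 0.18, adjusted p = 6.8e-14). All X36 livers were above all C0 livers. X72 had 1.42, 1.23 and 3.31 RPKM (log2 1.67 ± 0.23, adjusted p = 1e-08) and X1W had 0.752, 0.709 and 1.66 (log2 0.92 ± 0.23, adjusted p = 0.0014).

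Abcb1b, the second P-glycoprotein gene, also had an early rise, which sham livers shared. It had 0.145 to 0.385 RPKM in C0, 0.118, 0.31 and 0.154 in C4, 0.879, 0.775, 0.885, 0.407 and 0.404 in S4 and 0.827, 0.465 and 0.884 in X4. S4 was 2.04-fold above C4 (log2 1.03 ± 0.20, adjusted p = 1.2e-05) and S10 1.79-fold above C0 (log2 0.84 ± 0.18, adjusted p = 0.00011). The PH minus sham difference was not called at 4 h (log2 0.10 ± 0.20, adjusted p = 0.84) or 10 h (log2 −0.03 ± 0.19, adjusted p = 0.98). Abcb1b was also above C0 in later PH livers. X48 had 0.529, 0.462, 0.546, 0.684 and 0.574 RPKM (log2 0.70), without overlap with C0, and X72 had 0.377, 0.562 and 0.527 (log2 0.56). With libraries scaled to the same median these differences were 0.39 and 0.33, and neither was called. The X4 livers (replicates 4 to 6) overlapped S4 replicates 1 to 3, but all were above S4 replicates 4 and 5. The genes are close copies on the plus strand of mm9, at chr5:8660077-8748575 and chr5:8798147-8866314, and a read common to both was divided between them.

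The promoter windows of the P-glycoprotein genes are shown because these copies differed in their early course (RefSeq, GRCm38.p6, plus strand, chr5:8566841-8567140 and chr5:8797897-8798196), with capitals for the same motifs.
Abcb1a: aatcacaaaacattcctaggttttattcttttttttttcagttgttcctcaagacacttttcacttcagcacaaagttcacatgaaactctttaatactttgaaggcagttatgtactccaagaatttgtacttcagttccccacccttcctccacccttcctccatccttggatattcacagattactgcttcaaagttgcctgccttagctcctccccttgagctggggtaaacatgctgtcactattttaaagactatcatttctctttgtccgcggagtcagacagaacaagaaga
Abcb1b: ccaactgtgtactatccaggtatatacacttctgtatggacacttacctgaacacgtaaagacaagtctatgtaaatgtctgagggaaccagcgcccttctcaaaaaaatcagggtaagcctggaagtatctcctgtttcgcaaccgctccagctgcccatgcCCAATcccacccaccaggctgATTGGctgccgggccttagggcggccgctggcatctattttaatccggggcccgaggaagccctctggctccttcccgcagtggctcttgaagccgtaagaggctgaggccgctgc
The Abcb1b window holds CCAAT 87 bases before the start and, on the other strand (ATTGG), 66 bases before it. The Abcb1a window holds none of the motifs. It lies far upstream of the Abcb1a gene model (from chr5:8660077 in mm9), at another annotated start. The Abcb1b window lies at the start of its gene model (chr5:8798147). The windows are therefore not like for like, and the promoter at the Abcb1a gene model start was not searched.

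Abcc2 was above C0 in S1 (log2 0.56 ± 0.16, adjusted p = 0.0085), X36 (log2 0.94 ± 0.16, adjusted p = 1.2e-06), X72 (log2 0.81 ± 0.21, adjusted p = 0.00081) and X1W (log2 0.74 ± 0.21, adjusted p = 0.004). Each of these groups overlapped with C0, whose 3 lowest livers were replicates 7 to 9. Abcg2 was lower in S10 (9.62, 9.86 and 8.91 RPKM) than in C0 (12.4 to 19.1 RPKM, log2 −0.68 ± 0.10, adjusted p = 1.1e-07).

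The 5 Abcc genes of the basolateral group (Abcc3, Abcc4, Abcc5, Abcc6 and Abcc10) were called in PH against sham at no hour. Abcc6, whose loss causes ectopic mineralization, had 8.48, 10.1, 11.4, 12.2 and 16.1 RPKM in S4 and 24.9, 31.6 and 30.4 in C4, without overlap (2.5-fold lower, log2 −1.32 ± 0.16, adjusted p = 2.7e-10). Abcc3, an exporter of glucuronides, had 18.8 to 38.8 RPKM in C0 and 17.9, 19.1 and 15.1 in S10 (log2 −0.61 ± 0.21, adjusted p = 0.014). Abcc10 had 1.35, 1.89 and 1.79 RPKM in C4 and 0.518 to 1.53 in C0 (log2 0.75 ± 0.19, adjusted p = 0.0045, or 0.28, adjusted p = 0.51 with C0 replicates 7 to 9 alone). Abcc4 and Abcc5 had medians below 1 RPKM in every group.

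Abcg5 and Abcg8 together form the pump that sends cholesterol and plant sterols into bile, and both were lower in PH than in sham livers at 48 h. Abcg8 had 12.9, 9.93 and 9.43 RPKM in S48 and 5.44, 5.49, 4.95, 4.71 and 4.15 in X48 (2.11-fold lower, log2 −1.08 ± 0.25, adjusted p = 0.0003). Abcg5 had 13.6, 13.6 and 10.6 RPKM in S48 and 9.19, 8.03, 6.95, 7.84 and 6.4 in X48 (1.62-fold lower, log2 −0.69 ± 0.24, adjusted p = 0.014). Neither pair of groups overlapped. With libraries scaled to the same median the differences were −1.55 for Abcg8 and −1.17 for Abcg5. The Abcg5 call was lost without S48 replicate 1 (−0.64, adjusted p = 0.065) or 2 (−0.63, adjusted p = 0.059).

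At 44 h, Abcg8 had 3.23, 4.61 and 3.16 RPKM, 3.18-fold below C0 (log2 −1.67 ± 0.23, adjusted p = 3.3e-09), and Abcg5 had 4.18, 7.35 and 5.88, 2.19-fold below C0 (log2 −1.13 ± 0.22, adjusted p = 1e-05). At 36 h the genes differed from each other. Abcg5 had 18.4 to 27.1 RPKM and was above C0 (log2 0.90 ± 0.17, adjusted p = 8e-06), though the groups overlapped, while Abcg8 had 8.3 to 16.6 RPKM and was not called. X72 was below C0 for Abcg8 (4.86, 4.23 and 3.8 RPKM, log2 −1.44 ± 0.23, adjusted p = 2.2e-07) and was not called for Abcg5 (9.32, 8.1 and 9.4 RPKM). The ratio of Abcg5 to Abcg8 was 0.842 to 1.24 in C0, 1.05 to 1.37 in S48, 1.63 to 2.25 in X36 and 1.91 to 2.47 in X72.

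In unoperated livers, C4 was above C0 for both sterol genes without overlap. Abcg5 had 25.5, 35.6 and 24.9 RPKM in C4 against 7.92 to 19.8 in C0 (2.21-fold, log2 1.14 ± 0.22, adjusted p = 0.0003), and Abcg8 had 21.9, 25.5 and 22.3 against 7.29 to 18.2 (1.91-fold, log2 0.93 ± 0.23, adjusted p = 0.0035). The C4 livers came from a single experimental period and the C0 livers from several. With C0 replicates 7 to 9 alone the log2 differences were 1.07 (adjusted p = 0.022) for Abcg5 and 1.08 (adjusted p = 0.026) for Abcg8. With C0 replicates 4 to 6 alone that of Abcg8 was not called (0.52, adjusted p = 0.13). S4 was 3.21-fold below C4 for Abcg5 and 3.62-fold below it for Abcg8. Abcg1, a cholesterol exporter that macrophages also make, had 0.199 to 1.04 RPKM in C0 and 0.395 to 1.67 in X36 (log2 0.67 ± 0.16, adjusted p = 0.00025). The summed macrophage markers (9 of 10 in the table) were 17.5 to 257 RPKM in C0 and 12.0 to 100.1 in X36, and their part in that difference was not tested.

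Among the RefSeq windows of Abcg8, the one that overlaps the Abcg5 window was taken. It holds an annotated start of each gene, 110 bases apart and in opposite directions. In the mm9 gene models the genes overlap, as Abcg8 begins at chr17:85075642 and Abcg5 reaches to chr17:85082351. The RefSeq window of Abcg8 (GRCm38.p6, plus strand, chr17:84682871-84683170) is shown because the pair was lower at 44 h and 48 h, with capitals for the same motifs.
Abcg8: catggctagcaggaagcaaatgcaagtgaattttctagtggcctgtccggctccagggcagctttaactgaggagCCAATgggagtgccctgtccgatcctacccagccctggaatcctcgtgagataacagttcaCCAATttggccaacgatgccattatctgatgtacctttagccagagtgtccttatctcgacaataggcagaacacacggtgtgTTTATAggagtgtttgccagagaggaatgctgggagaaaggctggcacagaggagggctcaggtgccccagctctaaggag
It holds CCAAT 175 and 114 bases before the Abcg8 start and TATAAA on the other strand (TTTATA) 31 bases before it. Among the 33 members with a window, 12 hold CCAAT and 8 hold TATAAA in any of their windows. The shares of all genes (37.4% and 13.6%) are of single windows, so the values are not directly comparable.

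**Figure D4:**
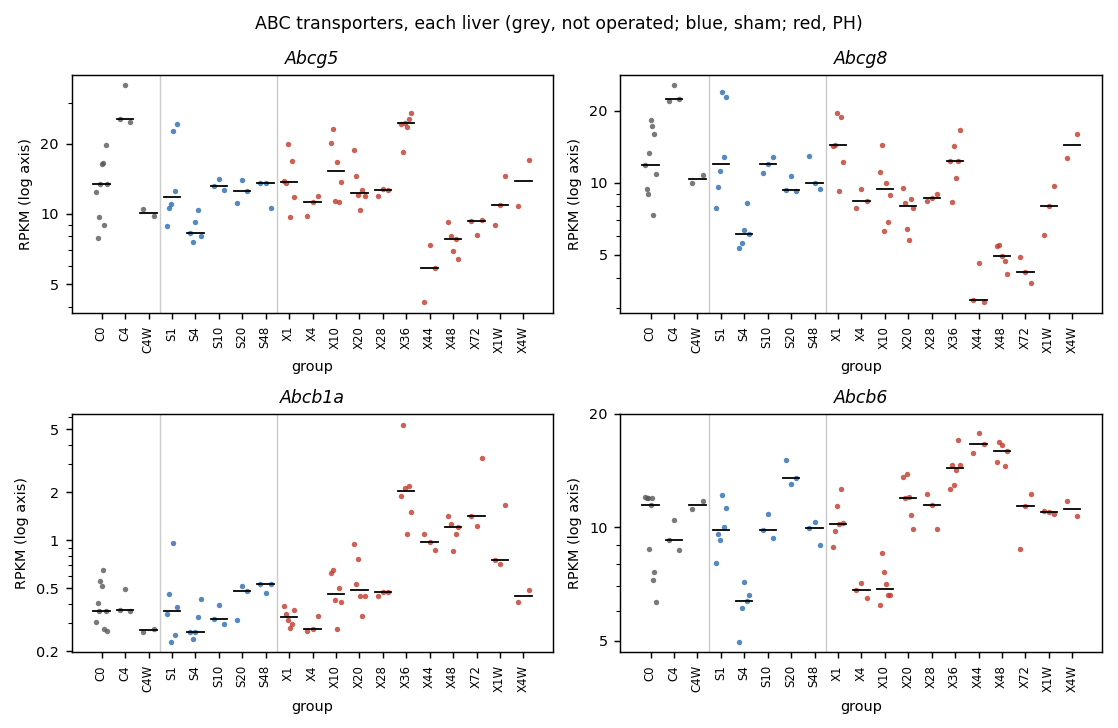
RPKM of Abcg5, Abcg8, Abcb1a and Abcb6 in each liver (points, log axis) by group, with the group median as a black bar. Abcg5 and Abcg8 have their lowest medians in X44 and high values in C4, Abcb1a has its highest median in X36, and Abcb6 has its highest medians in X44 and X48.

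Of the Abcb genes of mitochondria and lysosomes, Abcb6 and Abcb8 were higher in PH livers at 48 h and Abcb10 was lower at 10 h. Abcb6, a porphyrin transporter, had 9.96, 10.3 and 8.99 RPKM in S48 and 14.9, 16.8, 16.6, 14.6 and 15.9 in X48, without overlap (1.6-fold, log2 0.68 ± 0.14, adjusted p = 7.3e-05). At 10 h, S10 had 9.87, 10.9 and 9.38 RPKM and X10 had 6.23 to 8.57, a lower range that stayed short of the fold threshold (log2 −0.49 ± 0.14, adjusted p = 0.012). The difference between these hours was called (log2 1.16 ± 0.20, adjusted p = 4e-06).

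Abcb8, of the mitochondrial inner membrane, had 3.82, 3.77 and 4.43 RPKM in S48 and 5.66, 5.41, 6.94, 6.67 and 6.22 in X48, without overlap (1.51-fold, log2 0.59 ± 0.11, adjusted p = 1.9e-05). Abcb10, which acts in heme synthesis, had 6.16, 6.43 and 6.61 RPKM in S10 and 3.36 to 4.8 in X10, without overlap (log2 −0.60 ± 0.15, adjusted p = 0.0047), and the call was lost with X10 replicates 4 to 6 alone (−0.52, adjusted p = 0.057). Abcb9, of lysosomes, had 0.352, 0.357 and 0.359 RPKM in S20 and 0.0821 to 0.266 in C0 (log2 0.51 ± 0.12, adjusted p = 0.001).

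Slco2a1, Slc22a23 and Abcc9 were each called once between PH and sham. Slco2a1, the prostaglandin transporter, had 5.59, 7.04, 6.23, 8.34 and 9.94 RPKM in S4 and 15.6, 10.9 and 11.9 in X4 (log2 0.78 ± 0.19, adjusted p = 0.0022). Slc22a23, an orphan member of its family, had 4.13, 5.16, 5.33, 5.23 and 7.99 RPKM in S4 and 9.05, 8.45 and 8.87 in X4 (log2 0.67 ± 0.17, adjusted p = 0.0037). S4 and X4 livers did not overlap for either gene. The X4 livers analysed were replicates 4 to 6, and with S4 replicates 4 and 5 alone as the sham group the differences were 0.47, adjusted p = 0.25 for Slco2a1 and 0.43, adjusted p = 0.24 for Slc22a23.

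Abcc9, a potassium channel subunit of the vessel wall, had 1.28, 2.25 and 1.62 RPKM in S20 and 2.25 to 3.25 in X20 (log2 0.65 ± 0.20, adjusted p = 0.019, or 0.61, adjusted p = 0.097 with X20 replicates 4 to 6 alone). The groups overlapped at 1 sham liver. The summed stellate cell markers (8 of 8 in the table) were 33.4 to 57.7 RPKM in S20 and 58.5 to 78.9 in X20, and their part in the Abcc9 difference was not tested.

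The 48 h comparison depended on how the libraries were scaled. The log2 difference between X48 and S48 had a median of 0.27 over all genes, and 90.1% of all genes called were higher. After the libraries were brought to a common median, 0 members were higher and 9 lower (38.8% of all genes called being higher). With the median taken over genes above 1 RPKM, 2 were higher (Abcb1a and Slc22a3) and 8 lower (2566 genes called, 54.1% of them higher). Abcg8, Abcg5, Slc22a30, Slc22a28, Slc22a4, Abcb10, Slc22a29 and Slco2a1 were called lower in both scaled versions. The rises of Slco1a4, Slc22a5, Abcb6 and Abcb8 were called in neither, with 0.31, adjusted p = 0.053 for Abcb6 and 0.23, adjusted p = 0.059 for Abcb8 in the second.

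**Figure D5:**
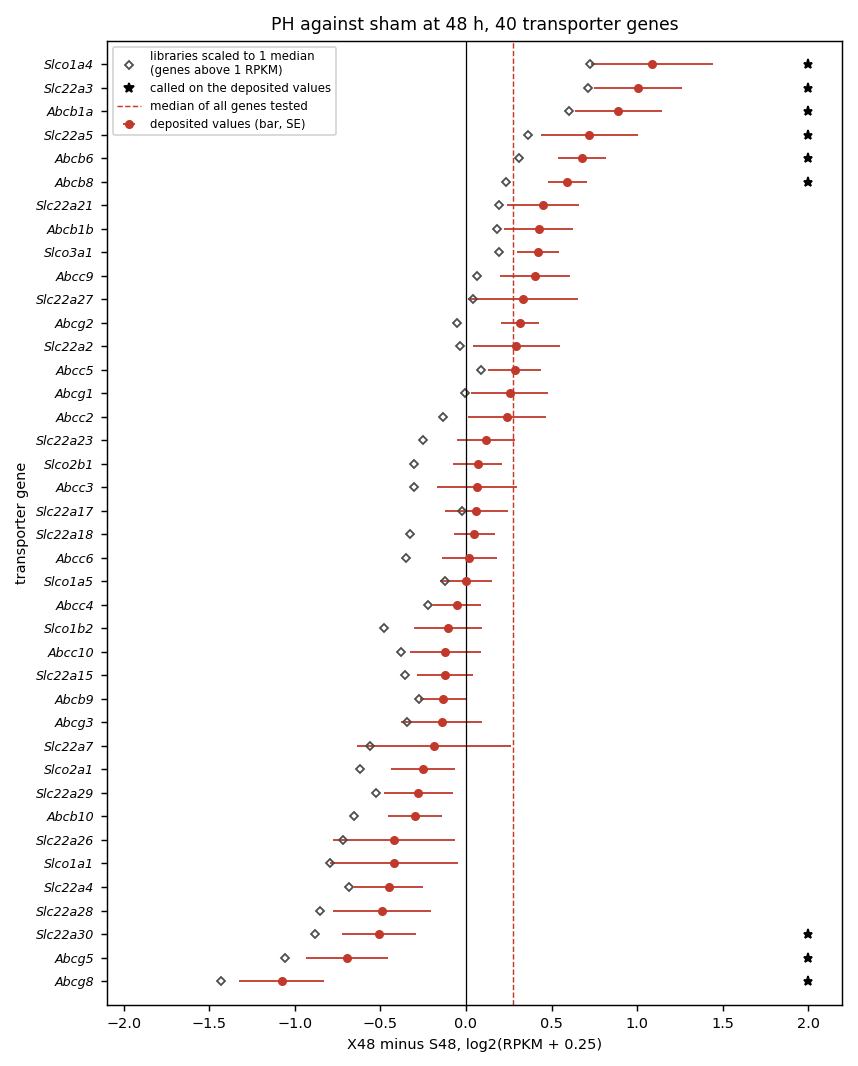
Difference between X48 and S48 in log2(RPKM + 0.25) for 40 members as deposited (points, bars 1 SE) and after bringing the libraries to a common median of genes above 1 RPKM (diamonds); stars mark members called as deposited, and the dashed line is the median of all genes, 0.27. Abcg8 is the lowest member as deposited, and Slco1a4 and Slc22a3 are the highest.

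Cell markers also differed at 48 h. The summed proliferation markers (7 of 8 in the table) were 1.35 to 2.68 RPKM in S48 and 94.7 to 184 in X48, the stellate markers 48.3 to 52.5 and 61.2 to 110.2, and the cholangiocyte markers (6 of 6) 19.6 to 29.5 and 31.7 to 44.4, each without overlap. The hepatocyte markers summed to 40420 to 50060 RPKM in S48 and 34590 to 40670 in X48. The part of these markers in the transporter differences was not tested.

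The sham groups had surgery without resection. S10 and S20 were collected at another time of day than C0, so that time of day and surgery cannot be told apart in those comparisons. At 1 h, 2 members were above C0 (Abcc2 and Slc22a5, beside 2.44% of all genes) and 0 below (5.34%), where limma gave 7 members below C0 at an unadjusted p below 0.05. With C0 replicates 1 to 6 alone, 0 were called. At 4 h, with C4 as the control of the same hour, 5 were higher in S4 (12.2% of all genes) and 23 lower (31%), or 6 and 17 with libraries scaled to the same median. The higher members were Slc22a5, Slc22a7, Abcb1b, Slc22a3 and Slc22a2. The C4 livers were collected in another experimental period than S4, so that period and surgery cannot be told apart there. Against C0 replicates 1 to 6 in place of C4, 3 members were higher and 19 lower, and the log2 differences of Slc22a7, Slc22a2 and Slc22a3 were −0.88, −0.32 and −0.01.

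At 10 h, 4 members were above C0 in sham livers (Slc22a5, Slc22a21, Abcb1b and Slc22a23, beside 17.9% of all genes) and 15 below (11.2%). At 20 h, 4 were above (7.85%) and 3 below (4.29%), or 1 and 4 with libraries scaled to the same median. At 48 h, 3 were above (3.83%) and 4 below (5.05%). The members below C0 in S48 were Slco1a1, Slc22a28, Slco1a4 and Slc22a30.

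Where a PH group was set against unoperated livers, surgery and resection cannot be told apart, nor can the time of day where the control is C0 and the hour differs. X28 had 8 members above C4 (14.4% of all genes) and 12 below (18.3%), and 4 and 9 against C0 replicates 1 to 6. X28 and C4 livers were not of the same experimental period. X36 had 14 above C0 (25.7%) and 4 below (9.29%). X44 had 9 above (30.8%) and 9 below (8.42%). X48 had 8 above (30.4%) and 6 below (7.66%), and X72 had 10 above (26.6%) and 4 below (6.59%).

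With libraries scaled to the same median, the splits were 10 above and 12 below in X36, 4 and 18 in X44, 5 and 16 in X48, and 3 and 9 in X72. Of all genes called after this scaling, 38.1%, 33.8%, 34.1% and 40.8% were above C0 in these groups in turn. The median gene was 0.16, 0.23, 0.24 and 0.21 above C0 (log2) before scaling. Slc22a26, Slc22a27 and Abcb1a were above C0 and Slco1a1, Slc22a28 and Slc22a30 below it in all 4 groups with and without this scaling.

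At 1 week, 9 members were above C0 (12.4% of all genes) and 2 below (4.48%). The first were Slc22a27, Slc22a26, Slc22a7, Abcb1a, Slc22a3, Slc22a2, Abcc2, Slc22a23 and Abcg1, and the second were Slco1a1 and Abcg8. For Slc22a2 and Abcc2, C0 replicates 7 to 9 were the lowest resting livers, and X1W overlapped C0 replicates 1 to 6. Slc22a2 had 0.872 to 1.904 RPKM in C0 replicates 1 to 6, 0.414, 0.532 and 0.239 in replicates 7 to 9, and 1.93, 2.01 and 1.68 in X1W. At 4 weeks, limma called 0 members higher (0.0325% of all genes) and 0 lower (0.0325%) in X4W than in C4W, and 0 had an unadjusted p below 0.05, with 2 livers in each group. Between the unoperated C4 and C0 livers, 4 members were higher in C4 (Abcg5, Abcg8, Slc22a21 and Abcc10, beside 5.81% of all genes) and 1 lower (Slc22a7, beside 2.08%). With C0 replicates 1 to 6 alone, 10 were higher and 6 lower, with 2665 of 15396 genes called in either direction. With C0 replicates 7 to 9 alone, 3 members were called, each higher in C4, with 174 genes called. By the design of the study, the C4 livers came from a single experimental period and the C0 livers from several. Period and hour are therefore not fully separate in this comparison.

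Factors known to regulate transporter genes, and transporters that work beside these families, were counted from lists. Of 14 regulators, 2 were higher in X48 than in S48, beside 24.5% of all genes. Nfe2l2 (Nrf2) had 10.7, 10.2 and 10.8 RPKM in S48 and 18.1, 16.04, 21.2, 18.98 and 19.6 in X48 (log2 0.81 ± 0.16, adjusted p = 4e-05). Its inhibitor Keap1 had 6.67, 8.0 and 7.71 and 10.2, 11.1, 11.4, 11.7 and 10.49 RPKM (log2 0.55 ± 0.10, adjusted p = 1.3e-05). The groups overlapped for neither.

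Of 13 partners, 2 were higher in X48 than in S48, again beside 24.5% of all genes. Ostb, a subunit of the basolateral bile acid exporter, had 2.14, 1.88 and 2.29 RPKM in S48 and 11.1, 9.58, 3.3, 6.6 and 6.32 in X48 (log2 1.59 ± 0.57, adjusted p = 0.018). Abcb4, the phospholipid pump of the canaliculus, had 39.1, 30.9 and 33.8 and 60.6, 48.8, 51.9, 40.1 and 63.8 RPKM (log2 0.60 ± 0.17, adjusted p = 0.0029). Again the groups did not overlap, and none of these 4 genes was called with either scaling of the libraries. Of the same lists, Hnf4a, Nr1h4, Abcb11 and Slc47a1 were called lower in X48 with both scalings. Their log2 differences were −0.68, −0.67, −0.77 and −0.84 with libraries scaled to the same median.

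Of the members not yet described, Slc22a18, Slco3a1, Slco1a5, Slc22a17 and Abcg3 were called in PH against sham at no hour. Slc22a18, an organic cation carrier of an imprinted region, had 35.7 to 45.8 RPKM in C0, 27.5, 29.6 and 25.1 in S10 and 19.9 to 26.1 in X10, and S10 was below C0 (log2 −0.56 ± 0.11, adjusted p = 2.1e-05). The other genes had medians below 1 RPKM in every group.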

How the data were processed

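The authors sequenced poly(A) RNA of individual livers from TruSeq stranded libraries (single-end), mapped reads to mm9 with TopHat2 2.0.13 and Bowtie2, used SAMtools 0.1.19, and counted reads on the transcribed strand with featureCounts, splitting reads with several positions between them. The deposited values are log2 RPKM per gene, with a floor of −14.29 for genes without reads. Of 87 labelled samples, 80 in 19 groups have a column. The other 7 are not analysed here, and 4 columns that match no sample were not used.

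RPKM was recovered as 2 to the power of the deposited log2 value. Group means of log2(RPKM + 0.25) were fitted together for 15396 of 37991 genes (above −1.5 in at least 1 library) with limma 3.58.1 in R 4.3.3 (empirical Bayes with a trend). Folds are on this scale and understate changes of low genes. A call needs a Benjamini-Hochberg adjusted p below 0.05 over all these genes and a log2 difference beyond 0.5. The median of the estimated depths was 26.7 M reads, at which 18.9 reads give the threshold of −1.5 for a 2 kb transcript. As a check, the share of low values near a whole number of reads had a median of 77.1% over libraries. It was 35.9% in X28 replicate 2, whose depth is the least certain. Samples are separate mice, and scripts were tested on simulated data. Python 3.11.15, numpy 2.4.6, pandas 2.3.3 and matplotlib 3.10.9 were used.

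Genes named were the expressed members of the hepatocyte uptake, carnitine, canalicular, basolateral, sterol and organelle roles. Other members were described with levels by group if called in PH against sham or with a group mean above 1 RPKM. The rest of these were only named in brief. Up to 5 regulators and up to 5 partners called at 48 h, as deposited or with both scalings, were also named. Of the members, 2 enter the counts but are not reported here by name. The members and lists were chosen with earlier results of these data known. Alternatives were other pseudocounts, no filter, other library scalings, single comparisons fitted alone, subsets of replicates, a replicate block and leaving out each library. Scaling to genes above 1 RPKM, resting livers 1 to 6 and subsets of sham livers were chosen after seeing the data.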

Additional observations from a re-analysis of the deposited data

Results flagged for a closer look

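Of 120 gene and group values examined for 1 liver set apart from the rest, 7 passed Dixon's critical value, and chance flags about 1 in 20. Abcc9 was low in X1 replicate 4 (1.116 RPKM, the other livers 1.82 to 2.377) and in X36 replicate 5 (1.419 RPKM, the others 2.47 to 3.187). Slco1a4 was low in the same X1 liver (6.831 RPKM, the others 10.42 to 13.21). Abcg5 was low in X36 replicate 2 (18.39 RPKM, the others 23.54 to 27.11), and Slc22a5 was high in X36 replicate 4 (22.78 RPKM, the others 15.9 to 17.75). Slco1b2 was low in S1 replicate 1 (140.6 RPKM, the others 161.9 to 172.4), and Slco2a1 was low in X10 replicate 4 (5.885 RPKM, the others 9.909 to 11.65).

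The PH minus sham difference changed between 10 h and 48 h for 4 members by limma's test of the change itself. For Abcb6 the change was 1.163 on the log2 scale (from −0.4855 to 0.6777, adjusted p = 3.99e-06), for Slco1b2 0.8414 (from −0.9453 to −0.1039, adjusted p = 0.017), for Abcb8 0.5042 (from 0.08808 to 0.5923, adjusted p = 0.0124) and for Abcg5 −0.9085 (from 0.2136 to −0.6949, adjusted p = 0.0334). With libraries scaled to the same median, the change of Abcb8 was 0.0331 (adjusted p = 0.917), or 0.144 (adjusted p = 0.554) where the median was taken over genes above 1 RPKM, and that of Slco1b2 was 0.348 (adjusted p = 0.452) or 0.464 (adjusted p = 0.292). The Abcg5 call was lost in each of 7 fits that left out 1 liver (S10 replicate 1 or 3, S48 replicate 1 or 2, X10 replicate 1 or 2, or X48 replicate 5), as without S48 replicate 1 (−0.851, adjusted p = 0.0848), and with no filter on low genes (adjusted p = 0.0852). The Abcb8 change was also no longer called in 9 such fits, and that of Slco1b2 without S48 replicate 3.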

How the results depend on the processing

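Of 4634 values under alternatives, 4039 kept their direction and side of the threshold (counts within 1.5 times), 534 single genes were no longer called, 53 counts moved and 8 genes reversed, and the cause was not tested. Of the members called in PH against sham, 92 of 462 alternative values were no longer calls. In the number of members called, C4 against C0 (5) gave 9 and 3 with pseudocounts of 0.1 and 1, 2 fitted alone, 16 with a replicate block, and 17, 12, 16 and 3 with resting livers 1 to 3, 4 to 6, 1 to 6 and 7 to 9. S1 against C0 (2) gave 1 with no filter, 0 fitted alone, 0 with the block, 5 and 0 with replicates 1 to 3 and 4 to 6 of both groups, and 0, 1, 0 and 11 with those resting livers. S20 against C0 gave 3 and 13 with resting livers 4 to 6 and 7 to 9, and S48 13 with the latter. X1W against C0 gave 21 with resting livers 7 to 9, 7 fitted alone and 7 with the block. X28 gave 13 against resting livers 1 to 6, and S4 against C4 gave 16 with a pseudocount of 1. PH against sham gave 1 at 1 h and 3 at 20 h with replicates 1 to 3, 0 at 20 h fitted alone, and 1 at 4 h with sham livers 4 and 5.

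Reversed were, against resting livers 1 to 6, Abcc5 (0.069), Slc22a2 (−0.32), Slc22a3 (−0.0095) and Slc22a7 (−0.88) in S4 and Abcg5 (0.017) in X28, and Slc22a2 in S48 (−0.030) and X72 (−0.13) with resting livers 1 to 3 and in X72 with the block (−0.068).

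Leaving out 1 library gave 0 to 0 calls in PH against sham at 1 h, 4 to 5 at 4 h, 5 to 7 at 10 h, 1 to 7 at 20 h, 5 to 10 at 48 h (5 without S48 replicate 1) and 2 to 4 for 48 h minus 10 h (2 without S10 replicate 3, S48 replicate 1 or 2, or X10 replicate 1). Against unoperated livers it gave 0 to 4 for S1 (4 without C0 replicate 2, 0 without C0 replicate 7, 1 without C0 replicate 8 or 9 or S1 replicate 3 or 6), 23 to 28 for S4, 18 to 20 for S10, 4 to 7 for S20 (4 without S20 replicate 1 or C0 replicate 4), 3 to 8 for S48 (3 without S48 replicate 2), 17 to 22 for X28, 17 to 20 for X36, 15 to 18 for X44, 14 to 16 for X48, 12 to 16 for X72, 7 to 13 for X1W (7 without X1W replicate 3), 0 to 0 for X4W and 1 to 13 for C4 (1 without C4 replicate 2, 8 without C4 replicate 3 or C0 replicate 7 or 9, 13 without C0 replicate 8).

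Replicate numbers did not pair the samples: deviations of same-numbered livers correlated between −0.186 and 0.296. At the lowest estimated depth, 12.2 M reads, members below 1 RPKM rest on few reads.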
